A study of Mus musculus with 3 samples.

Results

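Sugar uptake and its breakdown to lactate were followed here through 10 genes: the hexose transporters Slc2a5 and Slc2a1 and the glycolytic enzymes Hk2, Gpi1, Pfkl, Aldoa, Gapdh, Pgk1, Pkm and Ldha. They were taken by symbol from the 27998 genes of the deposited single-cell table, 1 row each, and their levels are described by cell class and by library. The cells were sorted with a Cd11b antibody from the brain, cerebellum removed, of female C57BL6J mice aged 5 months. Cd11b is a surface protein of microglia, the resident macrophages of the brain, and of other myeloid and some NK cells. The study has 3 groups. The Ctrl group was 1 naive animal. The D0 group was a pool of 2 animals fed PLX5622, an inhibitor of the Csf1r receptor on which microglia depend for survival, at 1200 mg/kg of diet for 14 days. The D2 group was 1 animal given that diet for the same 14 days and then control diet for 2 days, a time of early microglial return. The deposited barcodes carry the numbers 1, 2 and 3, and nothing in the labels or files ties a number to a group, so levels are given by library number and no group is compared with another. Each library stands alone without a replicate. No test could be made, and every interval below is a 95% interval of counting error only.

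Cells take up hexoses through transporters of the SLC2A family. SLC2A1 (GLUT1) carries glucose in most cell types, whereas SLC2A5 (GLUT5) carries fructose and in the brain is a known marker of microglia. Hexokinase traps glucose as glucose 6-phosphate, glucose-6-phosphate isomerase and phosphofructokinase carry it to the committed step, aldolase splits it, and GAPDH, phosphoglycerate kinase and pyruvate kinase then yield ATP and pyruvate. Lactate dehydrogenase turns pyruvate to lactate, which restores the NAD+ that GAPDH needs. Macrophages are known to rely more on this route when activated or when oxygen is scarce, and the hypoxia-inducible factors bind ACGTG and GCGTG cores near many of its genes.

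The promoters of Slc2a5, Hk2, Gapdh and Ldha are shown because these 4 genes carry the main contrasts below: the first pair was highest in the microglia-like cells of library 1 and the second pair in those of library 3. Each window is RefSeq's, build GRCm38.p6, from 250 bases before to 50 after a gene start, printed 5′ to 3′ on the gene's own strand. Capitals mark every match of the core ACGTG, of the core GCGTG or of the palindrome CACGTG on either strand. A CACGTG holds ACGTG once on each strand and is counted for both.
Slc2a5, chr4:150119094-150119393, plus strand: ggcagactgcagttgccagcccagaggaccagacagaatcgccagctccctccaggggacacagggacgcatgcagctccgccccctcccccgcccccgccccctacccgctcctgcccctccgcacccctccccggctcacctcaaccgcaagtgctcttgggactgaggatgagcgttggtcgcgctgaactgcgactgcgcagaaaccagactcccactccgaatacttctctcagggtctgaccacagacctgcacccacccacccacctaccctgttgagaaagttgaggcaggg
Hk2, chr6:82774405-82774704, minus strand: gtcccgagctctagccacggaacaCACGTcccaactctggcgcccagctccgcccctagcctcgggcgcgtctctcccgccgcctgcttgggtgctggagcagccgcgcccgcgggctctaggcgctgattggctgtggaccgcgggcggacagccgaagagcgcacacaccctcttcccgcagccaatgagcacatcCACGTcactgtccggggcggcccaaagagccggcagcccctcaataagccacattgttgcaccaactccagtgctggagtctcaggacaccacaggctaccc
Gapdh, chr6:125165724-125166023, minus strand: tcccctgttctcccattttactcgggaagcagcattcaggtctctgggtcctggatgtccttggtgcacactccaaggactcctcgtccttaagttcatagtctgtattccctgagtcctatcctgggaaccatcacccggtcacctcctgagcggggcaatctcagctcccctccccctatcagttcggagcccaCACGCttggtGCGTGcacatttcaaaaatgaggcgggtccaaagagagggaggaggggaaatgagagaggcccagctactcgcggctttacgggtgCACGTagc
Ldha, chr7:46845554-46845853, plus strand: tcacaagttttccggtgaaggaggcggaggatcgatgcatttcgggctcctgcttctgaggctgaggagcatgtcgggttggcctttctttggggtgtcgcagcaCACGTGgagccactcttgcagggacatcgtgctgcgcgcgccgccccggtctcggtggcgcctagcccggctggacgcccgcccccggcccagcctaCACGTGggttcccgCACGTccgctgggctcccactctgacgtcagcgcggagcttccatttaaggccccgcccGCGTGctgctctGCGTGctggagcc
The Slc2a5 window held 0 matches of the 2 cores, the Hk2 window 2, the Gapdh window 3 and the printed Ldha window 7, with 2 CACGTG among the last. Ldha has a second RefSeq window, not printed, with 2 core matches and no CACGTG. All 10 genes matched RefSeq by symbol, with 14 windows, of which 10 held a core. Among all 32851 mouse windows of this length, 43.8% held ACGTG or GCGTG on either strand and 7.15% held CACGTG. The letters GAGGAAG, a core bound by the macrophage factor PU.1, was found in 1 of the 14 windows, the third of Aldoa, against 13.6% of all windows. These matches are descriptions of the letters and say nothing of binding.

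The 3 libraries held 1263, 599 and 287 barcodes with 6410990, 4022293 and 2831118 UMIs, and no barcode sequence occurred in more than 1 library. After filters on detected genes, mitochondrial counts and doublets, 2137 cells formed 16 clusters. The 10 genes and 94 others of sugar metabolism were kept out of the clustering, so that a class could not be defined by the levels described here. All samples are labelled as microglia, yet microglia-like cells, named from P2ry12, Tmem119, Sall1 and 7 other markers, made up 86.0% of the cells used in library 1 (1085 cells), 11.0% in library 2 (65 cells) and 8.80% in library 3 (25 cells). Border-associated-macrophage-like cells (77) came only in library 1. Monocyte-like, non-classical monocyte-like, Cd209a dendritic-like, Ccr7 dendritic-like, neutrophil-like and NK-like cells, and a cycling cluster left without a type, made up most of the rest. Levels are given for the 19 combinations of class and library with at least 15 cells, as CPM, the UMIs of a gene per 1000000 UMIs of the summed cells.

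The 25 microglia-like cells of library 3 need care. They were deep (median 18218 UMIs, against 3395 in library 1 and 3761 in library 2), 23 of them lay in 1 cluster led by the chemokines and cytokines Ccl12, Il1a, Tnf, Ccl2 and Ccl3, and 13 were in cycle by their proliferation genes, against 1 of 1018 in library 1 after thinning to 2000 UMIs. With a finer clustering, with the 10 genes and their pathway kept in, or with doublets kept, 23 of the 25 instead joined the cycling cluster, and 22 of 24 did so under either of the stricter cell filters. Named one by one from their markers, 18 of the 25 were microglia-like, 5 neutrophil-like and 2 without a name. Their 10 microglia markers summed to 7842 CPM, against 35067 and 19138 in the microglia-like cells of libraries 1 and 2 and 1588 in the monocyte-like cells of their own library. None of those 10 markers was at 0, and in 25 of 25 cells the microglia markers outnumbered the monocyte markers. The monocyte markers summed to 305 CPM with 2 of 10 at 0, and the neutrophil markers to 2895 CPM with 1 of 10 at 0, above 209.6 in library 1. Every value for microglia-like cells of library 3 below rests on these cells, and whether they are microglia was not tested.

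Slc2a5, the fructose transporter (ENSMUSG00000028976, GRCm38 chromosome 4, 150119283 to 150144169, plus strand), was highest in microglia-like cells, and among these in library 1. There it stood at 573 CPM (interval 552 to 595, 2834 UMIs). In the microglia-like cells of library 2 it was at 105 (72.6 to 148, 33 UMIs) and in those of library 3 at 38.7 (22.5 to 61.9, 17 UMIs). The 3 intervals did not overlap.

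Outside microglia-like cells Slc2a5 was highest in library 1, the library with most microglia. Border-associated-macrophage-like cells, which line vessels and meninges, had 238 CPM (206 to 274). Neutrophil-like cells of that library had 196 (110 to 323, 15 UMIs in 15 cells) and Cd209a dendritic-like cells 51.9 (31.7 to 80.1). The order within library 1 was therefore microglia-like, then border-associated-macrophage-like and neutrophil-like with overlapping intervals, then dendritic-like. In libraries 2 and 3 the gene was near its limit of detection outside microglia-like cells: 4.02 and 4.91 CPM in monocyte-like cells, from 2 and 5 UMIs, and 11.5 in neutrophil-like cells of library 2. No UMI was seen in NK-like cells of these libraries, where 3 counts would have given 11.5 CPM in library 2 and 27.1 in library 3.

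Against all other cells of its own library, Slc2a5 in microglia-like cells was higher by 1.81 on the log2 scale in library 1 (1.62 to 2.01), by 4.79 in library 2 (3.85 to 5.81) and by 3.70 in library 3 (2.35 to 5.21). The larger ratios of libraries 2 and 3 came with a lower level in the other cells, 3.81 and 2.98 CPM against 163 in library 1. In library 2 Hk2 and Pfkl were at least 2-fold higher in microglia-like cells, 2 of 9 genes compared against 13% of all genes, and in library 3 Hk2, Pfkl, Gapdh and Ldha, 4 of 9 against 11.6%. None was 2-fold lower in either (22.3% and 13.9%). Slc2a5 itself had too few UMIs there for that count. In library 1 it alone of the 10 genes was at least 2-fold higher in microglia-like cells, where 5.25% of all genes compared were, and 0 of 10 were 2-fold lower, against 5.93%.

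The Slc2a5 level of other classes moved with their microglia markers. Per 1000 UMIs of the 10 microglia markers, Slc2a5 gave 16.3 UMIs (15.8 to 17.0) in the microglia-like cells of library 1, 14.4 (8.03 to 23.7) in its neutrophil-like cells, 12.1 (10.4 to 13.9) in its border-associated-macrophage-like cells and 11.2 (6.87 to 17.4) in its dendritic-like cells. In library 2 the ratios were lower, 5.51 (3.79 to 7.74) in microglia-like and 5.85 (2.35 to 12.1, from 7 UMIs) in neutrophil-like cells. The ratios of neutrophil-like and microglia-like cells of the same library thus had overlapping intervals in libraries 1 and 2, wide ones for neutrophil-like cells. In library 3 neutrophil-like cells had 0 Slc2a5 UMIs and 49 marker UMIs, too few to compare. Whether this RNA was made in those cells or carried into their droplets was not tested. Those markers themselves summed to 13644 CPM in the neutrophil-like cells of library 1 and to 187 in the NK-like cells of library 2.

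**Figure D1:**
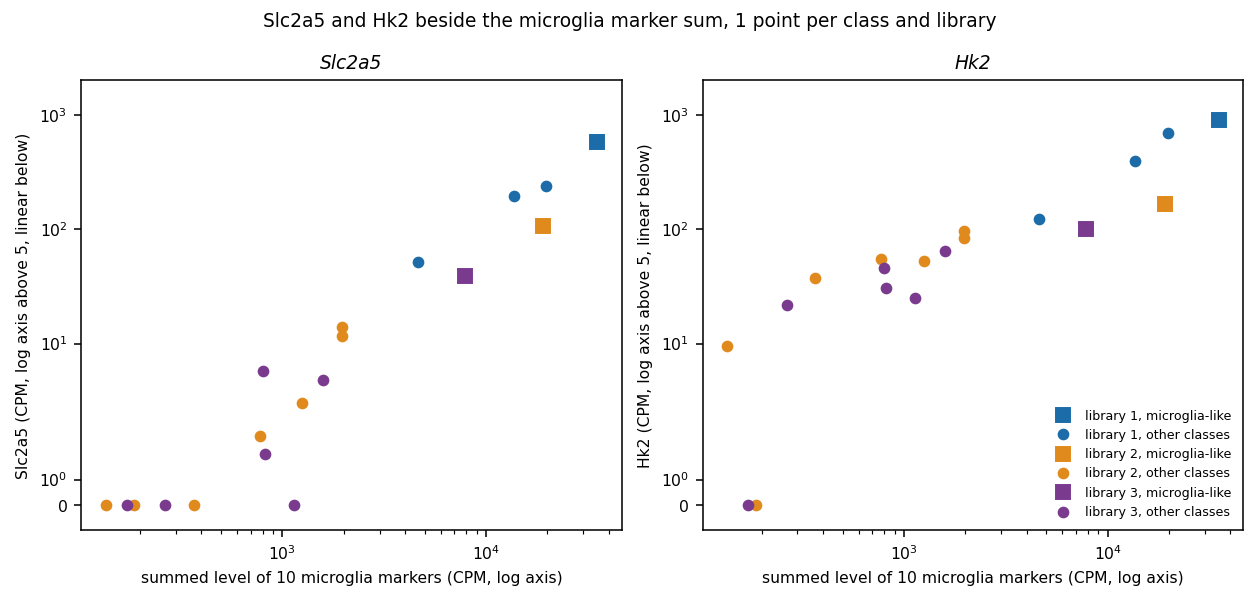
Slc2a5 and Hk2 levels against the summed level of the 10 microglia markers for the 19 class-by-library sums, both in CPM on log axes (the y axis linear below 5). Squares are microglia-like cells and circles other classes. Slc2a5 follows the marker sum across classes within library 1, and the microglia-like cells of libraries 2 and 3 lie below those of library 1 on both axes.

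Cells were compared at 1 depth by thinning each to 2000 UMIs. Slc2a5 then had a UMI in 661 of 1018 microglia-like cells of library 1 (64.9%, interval 61.9 to 67.9), in 14 of 59 of library 2 (23.7%, 13.6 to 36.6) and in 4 of 25 of library 3 (16.0%). Unthinned, the shares were 82.9%, 24.6% and 40.0%. The share was 26.0% in border-associated-macrophage-like cells, and 0 of 69 and 0 of 76 monocyte-like cells had one, which allows up to 4.35% and 3.95%. NK-like cells, which should lack the gene, gave 0 of 67 and 0 of 31 in libraries 2 and 3. The 13 NK-like cells of library 1 were too few for a level of their own. Pooled over the 3 libraries, unthinned NK-like cells had 2 Slc2a5 UMIs, with none from libraries 2 and 3. Among single microglia-like cells the level ran from 276 CPM at the lower quartile over 512 at the median to 881 at the upper quartile in library 1, while the median cell of libraries 2 and 3 had none. Within library 1, the 4 clusters of microglia-like cells had between 411 CPM, in the cytokine-led cluster, and 684.

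Slc2a1, the general glucose transporter (ENSMUSG00000028645, chromosome 4, 119108711 to 119137983, plus strand), was low in every class, with 411 UMIs in all. It stood at 33.8 CPM (28.9 to 39.3) in microglia-like cells of library 1, 38.3 (19.8 to 67.0) in library 2 and 25 (12.5 to 44.8) in library 3. The intervals overlapped. Its highest level was that of library 2, closely followed by the NK-like cells of library 3 at 36.2, and its lowest was 2.38 from 1 UMI in Ccr7 dendritic-like cells. In the order of the 19 levels neighbouring intervals overlapped throughout, so the order itself is not resolved. Antisense genes lie across part of its locus, and whether strand was used in the counting is not stated.

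Among transporter UMIs, Slc2a5 made up 84.5%, 51.6% and 32.1% in the microglia-like cells of libraries 1, 2 and 3. Monocyte-like cells used other members: Slc2a6, a transporter of lysosomal membranes, made up 46.3% and 66.3% in libraries 2 and 3. In neutrophil-like cells of library 2 Slc2a3, a high-affinity glucose carrier, led with 48.2%. UMIs tag 1 end of each transcript and were not divided by length, and capture may still differ among genes.

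Hk2, the inducible hexokinase of the outer mitochondrial membrane (ENSMUSG00000000628, chromosome 6, 82725025 to 82774454, minus strand), had the same order over libraries as Slc2a5. Its level in microglia-like cells was 897 CPM (870 to 923, 4432 UMIs) in library 1, 166 (124 to 218, 52 UMIs) in library 2 and 100.1 (72.8 to 134, 44 UMIs) in library 3. In library 1 border-associated-macrophage-like cells had 698 (642 to 757), neutrophil-like cells 392 (264 to 559) and Cd209a dendritic-like cells 122 (89.6 to 162). All 4 levels of library 1 had separate intervals.

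In libraries 2 and 3 the other classes had levels of 97.2 CPM or less. Monocyte-like cells had 52.2 and 64.8 CPM, dendritic-like cells 54.6 and 30.3, and neutrophil-like cells 84.1 (62.6 to 111) and 21.7. Ccr7 dendritic-like cells of library 2 had 9.52, and NK-like cells had no Hk2 UMI in either library. Pooled over all 3 libraries, the 125 NK-like cells, 13 of them of library 1, had 12 Hk2 UMIs. The 71 non-classical monocyte-like cells, 6 of them of library 1, had 57, against 7 and 8 in libraries 2 and 3. Both classes had too few cells in library 1 for a level there. The relation to the microglia markers differed by library. In library 1, Hk2 per 1000 marker UMIs was 25.6 in microglia-like, 28.7 (19.4 to 41.0) in neutrophil-like and 26.4 (19.4 to 35.1) in Cd209a dendritic-like cells, with overlapping intervals, as for Slc2a5. Border-associated-macrophage-like cells gave 35.4. In library 2 it gave 8.68 (6.48 to 11.4) in microglia-like cells against 41.7 (27.3 to 61.1) in monocyte-like, 70.4 (55.8 to 87.6) in dendritic-like and 42.6 in neutrophil-like cells of that library. Whether the Hk2 RNA of these other classes was made in their cells or carried into their droplets was not tested. After thinning, 57.5%, 25.4% and 16.0% of microglia-like cells of libraries 1, 2 and 3 and 53.2% of border-associated-macrophage-like cells had an Hk2 UMI. The unthinned share of library 3 was 72.0%. Within library 1, the clusters of microglia-like cells differed, from 399.8 to 1156 CPM.

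Hk2 was the main hexokinase wherever its level was high. It gave 94.6%, 85.2% and 75.9% of hexokinase UMIs in the microglia-like cells of libraries 1, 2 and 3, and 94.5% in border-associated-macrophage-like cells. Monocyte-like cells also carried Hk3, a myeloid hexokinase, at 23.7% and 31.0%, beside Hk2 at 68.4% and 58.4%. In NK-like cells all hexokinase UMIs, 11 and 2 in libraries 2 and 3, came from Hk1.

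**Figure D2:**
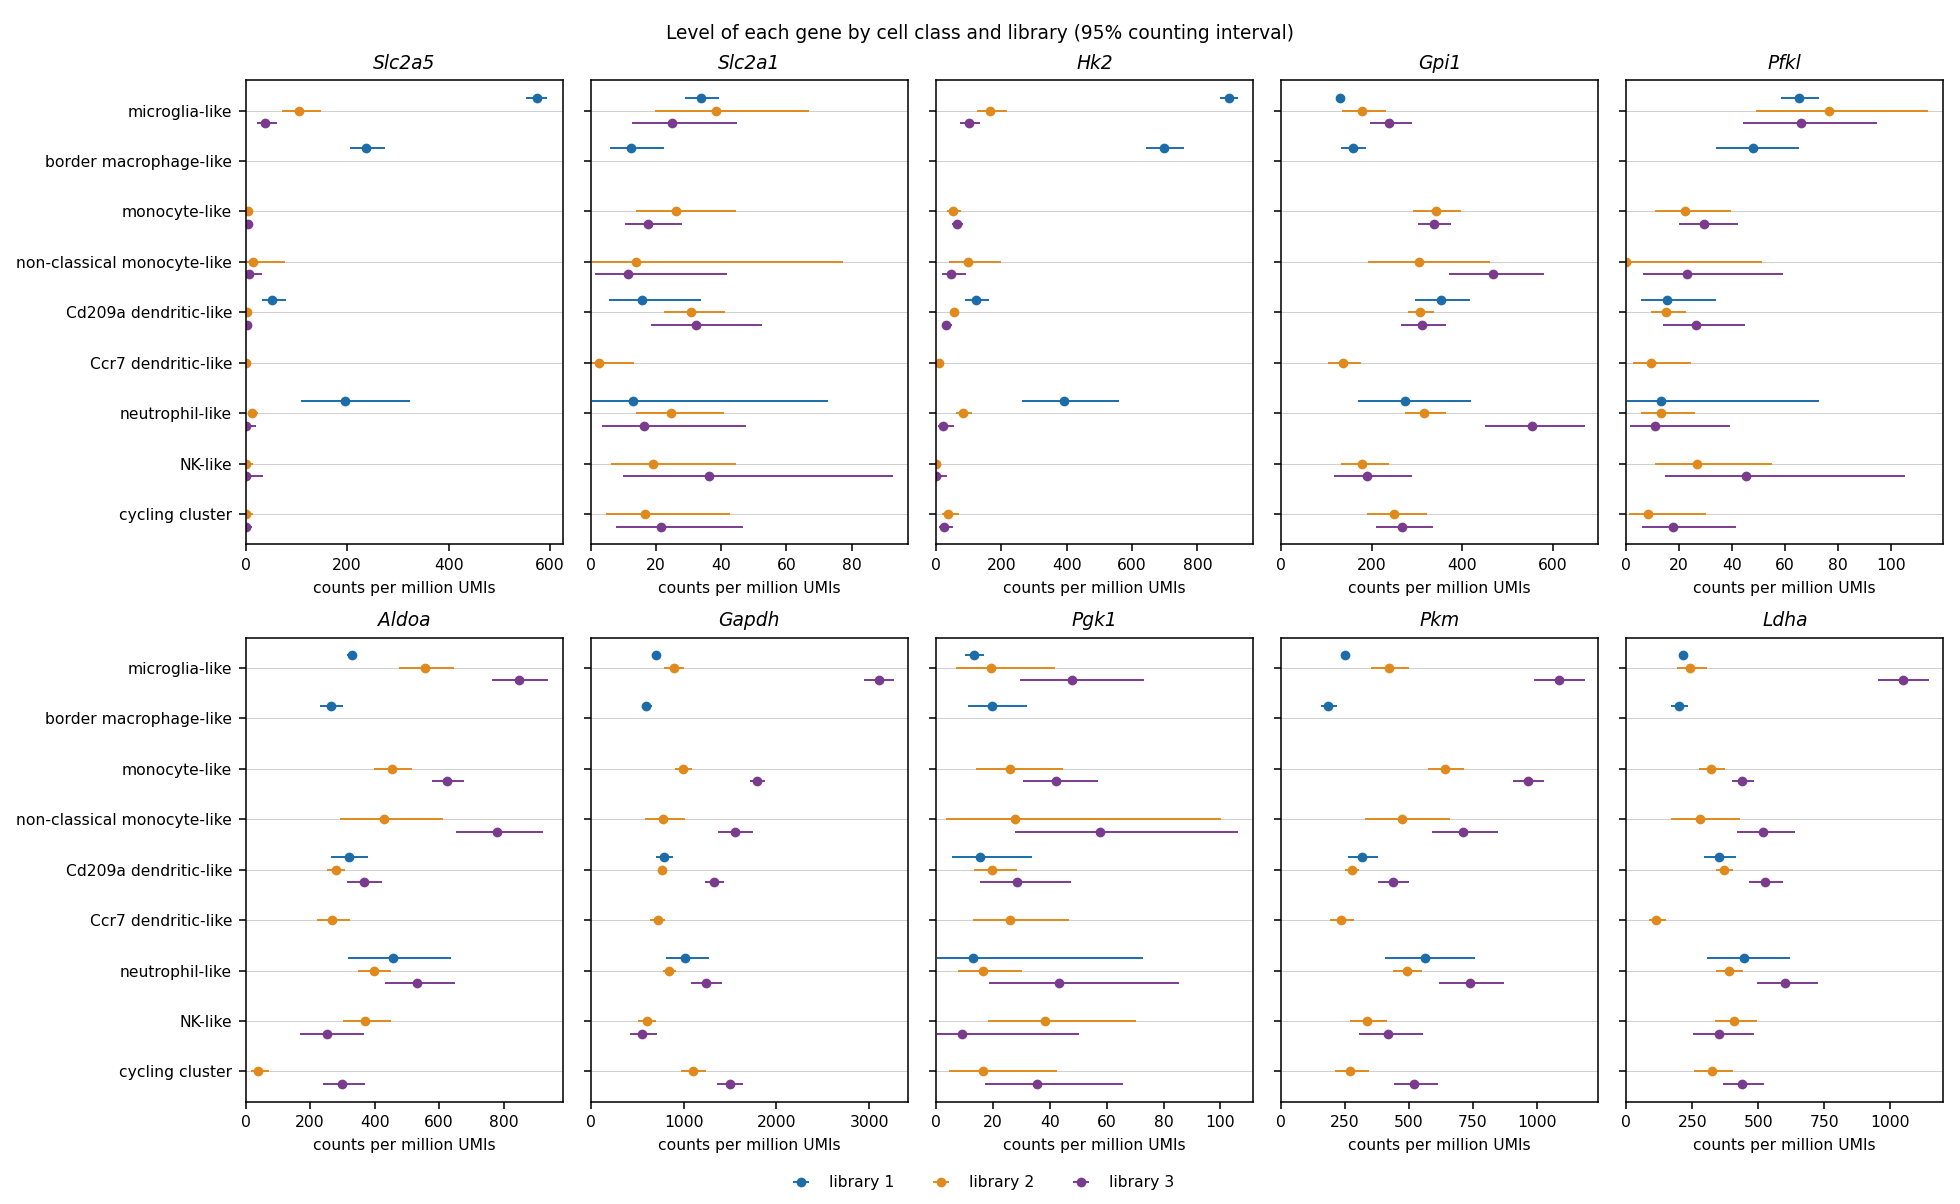
Level of each of the 10 genes in CPM (x axis, linear, its own scale for each gene) by cell class and library, with 95% counting intervals. Slc2a5 and Hk2 are high in microglia-like and border-associated-macrophage-like cells of library 1, and Gapdh, Pkm and Ldha are highest in the 25 microglia-like cells of library 3.

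Gpi1, which turns glucose 6-phosphate into fructose 6-phosphate (ENSMUSG00000036427, chromosome 7, 34201330 to 34230336, minus strand), had the opposite order to Slc2a5 among classes of library 1. It was lowest in microglia-like cells, at 131 CPM (121 to 141), and 158 (132 to 188) in border-associated-macrophage-like, 274 (170 to 419) in neutrophil-like and 353 (296 to 417) in Cd209a dendritic-like cells. Neighbouring intervals overlapped, so only classes that were not neighbours in this order were apart. Microglia-like cells had 179 (135 to 232) in library 2 and 239 (195 to 289) in library 3, and monocyte-like cells 342 (292 to 397) and 338 (303 to 375) there. Its highest level was 553 (451 to 672) in neutrophil-like cells of library 3. The log2 ratio of microglia-like to all other cells of a library was -0.78, -0.63 and -0.49 in libraries 1, 2 and 3. Over the 19 sums its highest level was 4.23 times its lowest, the narrowest range of the 10 genes.

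Pfkl, a subunit of the phosphofructokinase that commits sugar to glycolysis (ENSMUSG00000020277, chromosome 10, 77986947 to 78010083, minus strand), was highest in microglia-like cells in all 3 libraries. It stood at 65.3 CPM (58.4 to 72.9), 76.7 (49.1 to 114) and 66.0 (44.2 to 94.8) in libraries 1, 2 and 3, with overlapping intervals. The next class was border-associated-macrophage-like at 47.8, followed by NK-like cells of library 3 at 45.2, while monocyte-like cells had 22.1 and 29.5 and Cd209a dendritic-like cells 15 to 26.3. The intervals of the NK-like cells overlapped those of the microglia-like cells of their libraries. So did those of border-associated-macrophage-like and neutrophil-like cells in library 1. The same held for non-classical monocyte-like cells in libraries 2 and 3 and Cd209a dendritic-like cells in library 3. The first place of microglia-like cells thus rests on point values. Microglia-like cells exceeded all other cells of their library by 0.93, 2.09 and 1.35 on the log2 scale.

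The phosphofructokinase subunits divided the classes. Pfkl supplied 94.7%, 92.3% and 93.5% of subunit UMIs in the microglia-like cells of libraries 1, 2 and 3. Pfkp, the platelet-type subunit, supplied 77.4% and 59.8% in monocyte-like cells of libraries 2 and 3, 75%, 78.5% and 64.1% in Cd209a dendritic-like cells of libraries 1 to 3, and 88.9% and 78.6% in the cycling cluster. Pfkp was at 0.607 CPM in microglia-like cells of library 1 and at 4.55 in those of library 3. The latter came from 2 UMIs, where 3 would have given 6.83 CPM. In the 25 cells of library 3 Pfkp gave 6.45% of subunit UMIs (0.791 to 21.4), a share below those of the cycling cluster. What this means for their cell type was not tested.

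**Figure D3:**
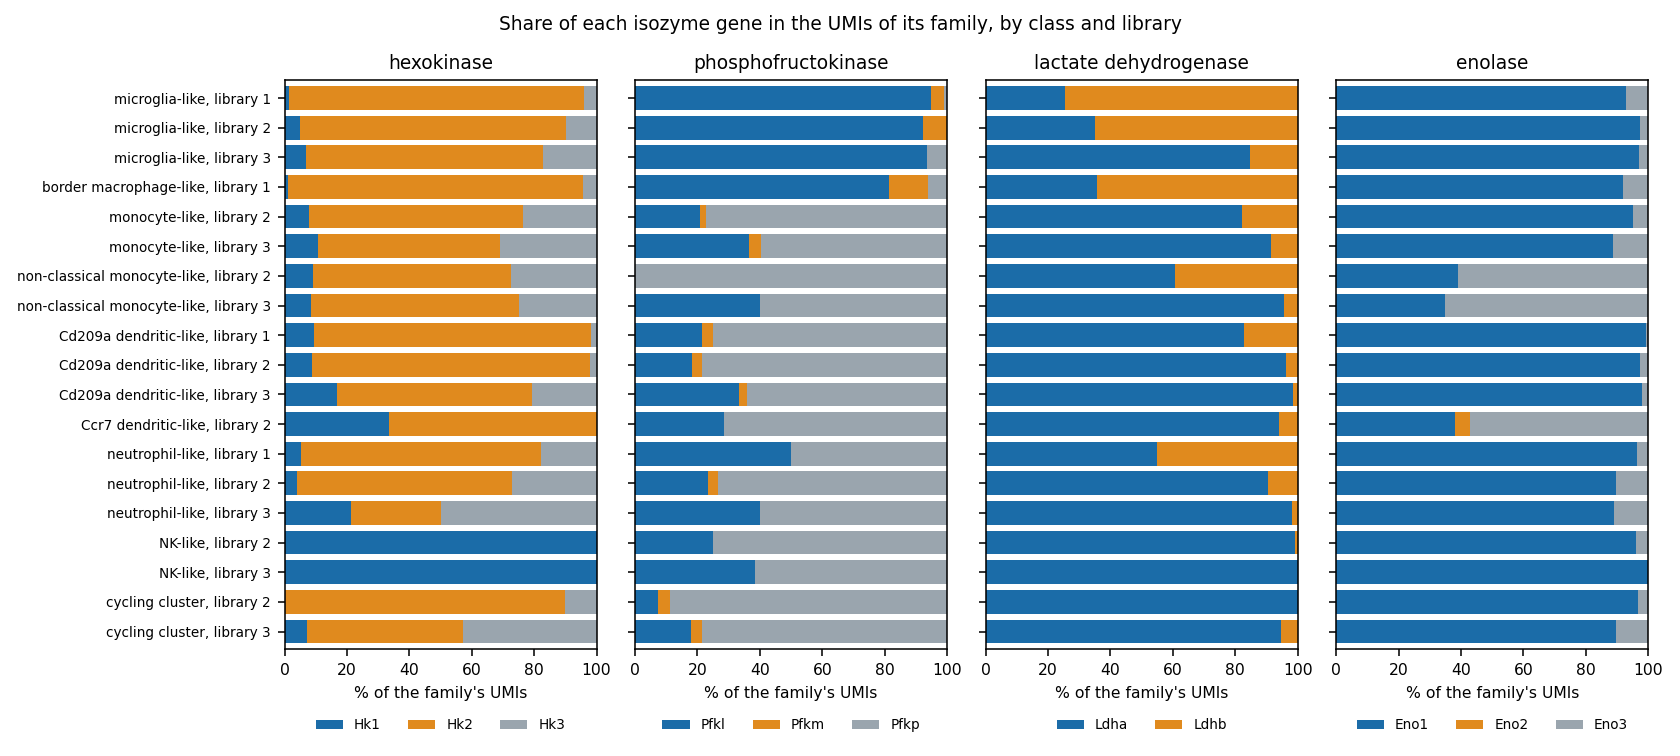
Share of each family's UMIs (x axis, percent, stacked bars) given by each isozyme, for the 19 combinations of class and library, in the hexokinase, phosphofructokinase, lactate dehydrogenase and enolase families. Pfkl leads in microglia-like cells of all 3 libraries and Pfkp in monocyte-like and dendritic-like cells, and the share of Ldha in microglia-like cells is largest in library 3.

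Aldoa, the aldolase that splits fructose 1,6-bisphosphate (ENSMUSG00000030695, chromosome 7, 126795234 to 126800751, minus strand), stood in microglia-like cells of library 1 at 329 CPM (314 to 346), against 556 (476 to 645) in library 2 and 847 (763 to 937) in library 3. These intervals did not overlap. Library 3 was also above library 2 in monocyte-like cells, at 626 against 454, and in non-classical monocyte-like cells, at 779 against 430.4. The order was the other way in NK-like cells, at 253 against 371. The cycling cluster had 37.5 (17.1 to 71.2) in library 2, the lowest level of any class, and 299.6 (239 to 371) in library 3. Aldoa gave at least 86.3% of aldolase UMIs in every sum.

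Gapdh, which makes 1,3-bisphosphoglycerate and NADH (ENSMUSG00000057666, chromosome 6, 125161715 to 125166467, minus strand), differed between libraries within microglia-like cells. They had 704 CPM (680 to 727) in library 1, 895 (793 to 1006) in library 2 and 3102 (2939 to 3271) in library 3. The next highest sums were the monocyte-like cells of library 3 at 1791 and its non-classical monocyte-like cells at 1552. The lowest was 552, in NK-like cells of library 3. Single cells showed the same shift: the lower quartile, median and upper quartile were 355, 614 and 954 CPM for library 1, 306, 647 and 1035 for library 2, and 2570, 3219 and 3568 for library 3. The lower quartile of library 3 therefore lay above the upper quartiles of both other libraries. Thinned to 2000 UMIs, 72.7% and 76.3% of microglia-like cells of libraries 1 and 2 had a Gapdh UMI, as had 25 of 25 in library 3.

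Pgk1, the first ATP-yielding enzyme of the route (ENSMUSG00000062070, chromosome X, 106187100 to 106203699, plus strand), was thinly counted, with 303 UMIs over all cells. Microglia-like cells had 13.4 CPM (10.3 to 17.0), 19.2 (7.04 to 41.7) and 47.8 (29.6 to 73.1) in libraries 1, 2 and 3. Only the first and the third are apart. The highest level was 57.7, in non-classical monocyte-like cells of library 3. Gapdh, Pgk1, Ldha, Aldoa and Pkm have near-identical processed pseudogenes, so reads that match several copies may be missing from their counts and their levels are uncertain.

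Pkm, pyruvate kinase (ENSMUSG00000032294, chromosome 9, 59656368 to 59679375, plus strand), was lower in microglia-like and border-associated-macrophage-like than in neutrophil-like cells of library 1. In library 2 it was lower in microglia-like than in monocyte-like cells. In library 3 it was highest in microglia-like cells, with an interval that overlapped that of monocyte-like cells. Microglia-like cells had 249 CPM (235 to 263), 422 (353 to 500) and 1086 (990 to 1187) in libraries 1, 2 and 3, and border-associated-macrophage-like cells 185 (157 to 217). Monocyte-like cells had 641 (573 to 715) in library 2 and 966 (907 to 1029) in library 3. Neutrophil-like cells had 561 (406 to 756), 491 (437 to 550) and 738 (619 to 873) in libraries 1, 2 and 3. In library 2 their interval overlapped that of microglia-like cells. Counts at transcript ends do not tell the M1 and M2 splice forms apart.

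Ldha, the muscle-type lactate dehydrogenase subunit (ENSMUSG00000063229, chromosome 7, 46841475 to 46855627, plus strand), had 214 CPM (202 to 228) in microglia-like cells of library 1, 243 (191 to 304) in library 2 and 1047 (953 to 1147) in library 3. In all other sums it lay between 114 (84.2 to 151), in Ccr7 dendritic-like cells, and 602, in neutrophil-like cells of library 3. Thinned, 33.6%, 33.9% and 92.0% of microglia-like cells had an Ldha UMI.

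Ldhb, the heart-type subunit, had the reverse order: 629, 447 and 187 CPM in the microglia-like cells of libraries 1, 2 and 3. Its share of lactate dehydrogenase UMIs there was 74.6%, 64.8% and 15.1%. The other classes were led by Ldha, which gave 82.1% and 91.4% in monocyte-like cells of libraries 2 and 3, 96.1% and 98.5% in Cd209a dendritic-like cells, and 99.1% in NK-like cells of library 2, with no Ldhb UMI in those of library 3. Border-associated-macrophage-like cells were close to the microglia-like cells of library 2, with 64.3% Ldhb. The 25 cells of library 3 thus had the phosphofructokinase share of the other microglia-like cells and a lactate dehydrogenase share nearer that of monocyte-like cells.

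The 9 genes other than Slc2a5 together took 0.264% of all UMIs (0.259 to 0.268) in microglia-like cells of library 1, 0.259% (0.242 to 0.278) in library 2 and 0.656% (0.632 to 0.680) in library 3. The intervals of libraries 1 and 2 overlapped for the class as a whole, with less Hk2 and more Aldoa and Pkm in library 2. Within clusters the intervals of the summed shares were apart, in opposite directions. They were 0.220% (0.210 to 0.229) against 0.173% (0.150 to 0.199) in cluster 2, and 0.280% (0.268 to 0.293) against 0.324% (0.298 to 0.351) in the cytokine-led cluster 4. The medians over cells were lower in library 2 in both, at 0.201% against 0.166% in cluster 2 and 0.265% against 0.220% in cluster 4. The 24 cells of library 2 in cluster 4 had quartiles of 0.158% and 0.467%. Monocyte-like cells had 0.288% (0.273 to 0.303) and 0.431% (0.419 to 0.444) in libraries 2 and 3, neutrophil-like cells 0.319%, 0.258% and 0.375% in libraries 1 to 3, Cd209a dendritic-like cells 0.229%, 0.212% and 0.308%, and NK-like cells 0.198% and 0.185%. Library 3 was above library 2 in each of these classes but NK. In microglia-like cells the mitochondrial share of UMIs was 1.27%, 2.02% and 2.20% and the ribosomal-protein share 13.8%, 19.0% and 22.8% in libraries 1, 2 and 3. The part of these in the glycolytic shares was not tested beyond leaving them out of the total, which gave 0.310%, 0.328% and 0.874%.

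The 25 cells of library 3 ranged from 0.412% to 0.989% of UMIs. In library 1, 126 of 1085 microglia-like cells (11.6%) and in library 2 7 of 65 (10.8%) reached the lowest of these. Depth moved with this comparison. Of the 71 microglia-like cells of library 1 with at least 10000 UMIs, 7 (9.86%) reached 0.412%, and their summed share was 0.290%. Their median depth, 12946 UMIs, was still below the 18456 of the 22 such cells of library 3. Within library 1, 3 equal sets of the microglia-like cells by depth had 584, 711 and 736 CPM of Gapdh, 189, 219 and 219.6 of Ldha and 707, 637 and 505 of Slc2a5, from the shallowest to the deepest.

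**Figure D4:**
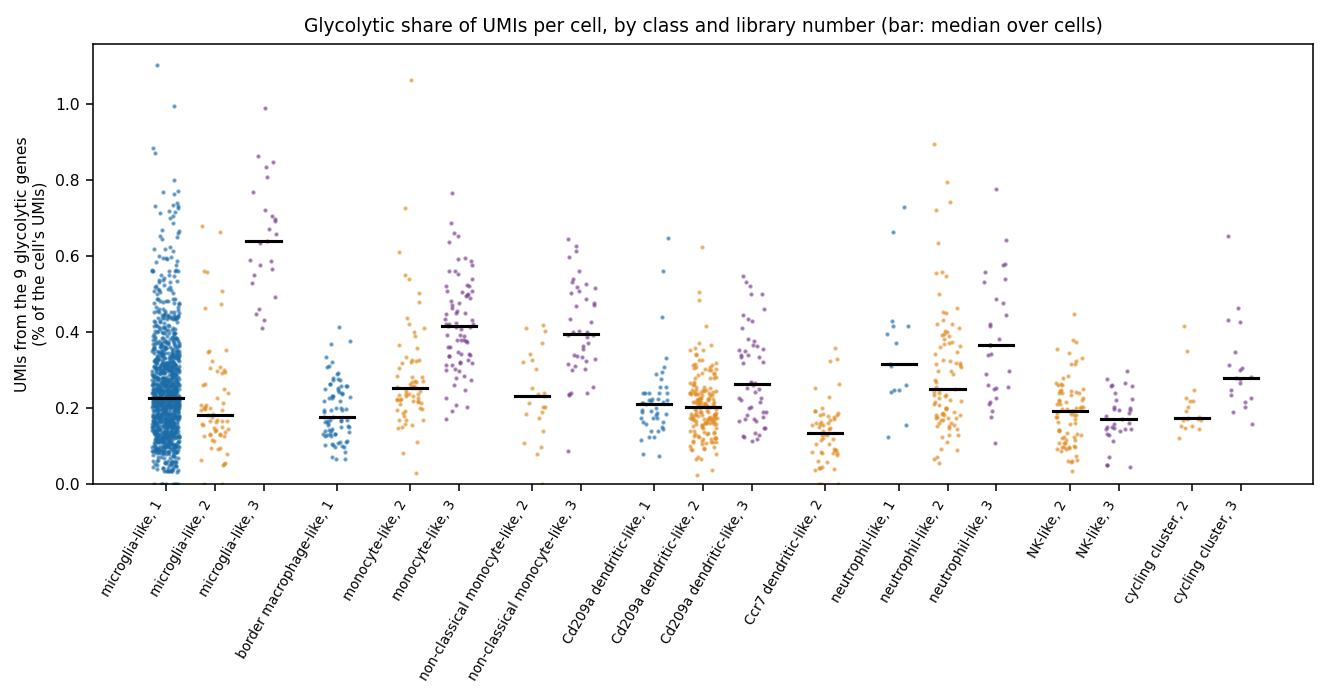
Share of each cell's UMIs that came from the 9 glycolytic genes (y axis, percent), 1 point a cell, by class and library, with a bar at the median. The median of the microglia-like cells of library 3 is 0.641%, against 0.227% and 0.184% in libraries 1 and 2.

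Between libraries 1 and 2, microglia-like cells differed most in Slc2a5 and Hk2. Both were lower in library 2, with log2 ratios of -2.44 (-2.98 to -1.95) and -2.43 (-2.85 to -2.04), or 5.44-fold and 5.4-fold. The 2 libraries filled different clusters of the class: clusters 0, 1, 2 and 4 held 357, 322, 304 and 102 cells of library 1 but 1, 5, 35 and 24 of library 2. Within cluster 2, Hk2 was 399.8 CPM (361 to 442) in library 1 against 164 (99.0 to 257) in library 2, and Slc2a5 651 (601 to 705) against 164 (99.0 to 257). Within the cytokine-led cluster 4, Hk2 was 916 against 177 and Slc2a5 411 against 57.1. They were 2 of 10 genes at least 2-fold lower, against 19.9% of all genes compared, and 0 of 10 were as much higher, against 2.5%. Aldoa, Pkm and Gapdh were higher by 0.76 (0.52 to 0.98), 0.76 (0.49 to 1.02) and 0.35 (0.17 to 0.52), under 2-fold. The median of the 9 glycolytic genes was 0.35 and that of all genes -0.36. Hk2 was also lower in library 2 outside microglia-like cells, where the microglia markers moved with it. Those markers summed to 13644 CPM in neutrophil-like cells of library 1 against 1971 in library 2, and to 4616 against 775 in Cd209a dendritic-like cells, and their part in the Hk2 level was not tested. In neutrophil-like cells Hk2 was 392 CPM in library 1 against 84.1 in library 2, a log2 ratio of -2.22. There 8.44% of genes were 2-fold lower and 19.0% higher, the latter with 0 of the 6 genes compared. In Cd209a dendritic-like cells Hk2 was 122 against 54.6, a ratio of -1.16 (4.55% lower, 2.75% higher, with 0 of the 7 genes compared higher). Library 3 against library 1 gave -2.01 for Hk2 in Cd209a dendritic-like cells (5.22% lower, with 0 of 6 genes among the 4.81% higher), and Gpi1 was the 1 gene of 5 at least 2-fold higher in neutrophil-like cells (12.3%), with 0 lower (12.8%).

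In the cytokine-led cluster of microglia-like cells alone Aldoa passed 2-fold as well (2.85% of genes did), with Slc2a5 and Hk2 again lower (12.9%).

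Between libraries 1 and 3 the lower glycolytic enzymes stood apart, a comparison made after the levels had been seen. In library 3 Aldoa, Gapdh, Pgk1, Pkm and Ldha were at least 2-fold higher, 5 of 10 against 12.3% of all genes, and Slc2a5 and Hk2 at least 2-fold lower, 2 of 10 against 28.2%. Ldha was 4.89-fold higher, a log2 ratio of 2.29 (2.13 to 2.45). Gapdh was 4.41-fold higher, Pkm 4.36-fold, Pgk1 3.58-fold and Aldoa 2.57-fold. Gpi1 was higher by 0.87 (0.56 to 1.17), while Pfkl, at 0.01, and Slc2a1, at -0.43, had intervals that hold 0. Slc2a5 was 14.8-fold and Hk2 8.95-fold lower. The median over the 9 glycolytic genes was 1.36, against -0.26 over all genes.

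Values within subsets of the cells, which were also chosen after the values were seen, follow. Within the cytokine-led cluster, Aldoa, Gapdh, Pkm and Ldha were higher by 1.30, 2.03, 1.83 and 2.21 on the log2 scale (4 of 8, against 19.8% of genes). Among cells with at least 10000 UMIs, 22 and 71 in number and not matched in depth, they were higher by 1.51, 2.04, 2.24 and 2.24 (4 of 8, against 16.2%). Among cells not in cycle, 12 and 1017, all 5 genes were higher again (10.8%), with Ldha at 2.30. Within library 3, cycling against other microglia-like cells differed by -0.40 in Aldoa, -0.18 in Gapdh, -0.35 in Pkm and -0.02 in Ldha, and 0 of 5 genes reached 2-fold in either direction (2.77% of genes higher, 2.23% lower).

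**Figure D5:**
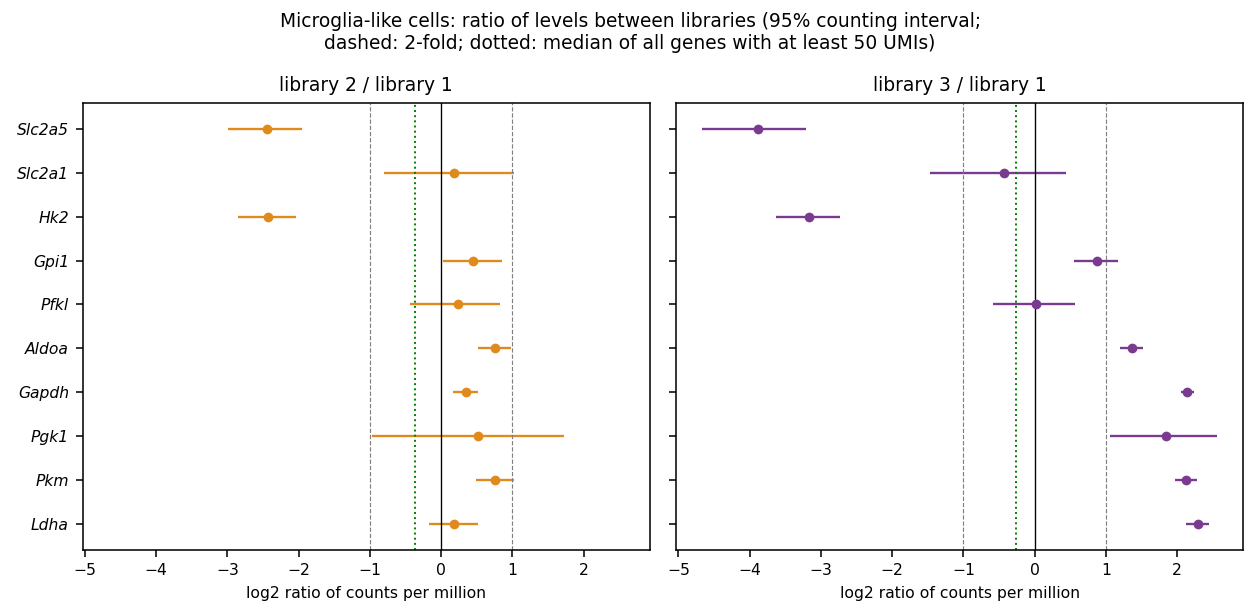
Log2 ratio of each gene in microglia-like cells of library 2 (left) and library 3 (right) over library 1, with 95% counting intervals, dashed lines at 2-fold and a dotted line at the median of all genes compared. Slc2a5 and Hk2 lie below 0 in both panels, and Aldoa, Gapdh, Pgk1, Pkm and Ldha lie above 1 in the panel of library 3.

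Other classes were compared between libraries 3 and 2, since few of their cells were in library 1. In library 3 Gapdh was higher by 0.85 (0.70 to 0.99) in monocyte-like, 0.78 in Cd209a dendritic-like, 0.55 in neutrophil-like and 1.00 (0.58 to 1.44) in non-classical monocyte-like cells, and its log2 ratio was -0.13 in NK-like cells. Of the 10 genes, 7 had enough UMIs to compare in monocyte-like and Cd209a dendritic-like cells and 6 in neutrophil-like cells. In non-classical monocyte-like, NK-like and cycling cells 5 had. None of the genes compared reached 2-fold higher in monocyte-like (6.13% of genes did), Cd209a dendritic-like (3.78%) or neutrophil-like cells (2.72%). The same held in non-classical monocyte-like (3.0%) and NK-like cells (1.42%), and in the cycling cluster Aldoa did (4.32%). Hk2 was 2-fold lower in neutrophil-like cells (11.1%). None of the genes compared was in monocyte-like (3.84%), Cd209a dendritic-like (2.49%), non-classical monocyte-like (4.29%), NK-like (1.42%) or cycling cells (2.65%). Genes with too few UMIs were not counted, and some passed 2-fold by point value in either direction. Pgk1 was at 43.4 CPM in library 3 against 16.5 in neutrophil-like cells, and Hk2 at 46.2 against 97.2 in non-classical monocyte-like cells. The median of the glycolytic genes was 0.46 in monocyte-like, 0.39 in Cd209a dendritic-like and 0.57 in neutrophil-like cells, against medians of all genes of 0.16, 0.13 and -0.22. For microglia-like cells Gapdh, Pkm and Ldha were 2-fold higher in library 3 than in library 2, 3 of 8 against 26.1% of genes. Slc2a5 was 2-fold lower there, 1 of 8 against 12.2%. Whether the libraries differed more in microglia-like cells than in other classes was not tested.

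Monocyte-like and microglia-like cells were set side by side within a library, as cells that share a tissue and a preparation. In library 2, 0 of 6 genes were at least 2-fold higher in monocyte-like cells (21.1% of all genes were) and Hk2 alone was 2-fold lower (15.1%). The median of the glycolytic genes was 0.28, close to the 0.22 of all genes. In library 3, 0 of 8 genes were 2-fold higher (11.9%), Pfkl and Ldha were 2-fold lower (10.8%), and the medians were -0.53 and -0.09. In library 1, where monocyte-like cells were too few, Cd209a dendritic-like cells exceeded microglia-like cells 2-fold in Gpi1 (6.64%) and lay 2-fold below them in Slc2a5, Slc2a1, Hk2 and Pfkl (33.0%), although the interval of Slc2a1, from 6 UMIs, held equal levels. Neutrophil-like cells, 15 in number there, were 2-fold above microglia-like cells in Gpi1, Pkm and Ldha (6.79%) and 2-fold below in the same 4 genes by their point values (41.7%). Slc2a1 and Pfkl rested on 1 UMI each there, and their intervals held equal levels, so only Slc2a5 and Hk2 were below beyond counting error. Border-associated-macrophage-like cells lay 2-fold below microglia-like cells in both transporters (2.95%) and above them in none of the 10 (3.68%).

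In libraries 2 and 3 the dendritic-like and neutrophil-like cells were set against microglia-like cells in the same way. In library 2, Hk2 was 2-fold lower in Cd209a dendritic-like than in microglia-like cells (1 of 7, against 15.7% of genes) and 0 of 7 genes were 2-fold higher (17.0%). In neutrophil-like cells of that library 0 of 6 genes were 2-fold higher (16.4%) or lower (20.6%). In library 3, Hk2, Aldoa, Gapdh and Pkm were 2-fold lower in Cd209a dendritic-like cells, 4 of 6 against 16.8%, and 0 were higher (8.75%). Neutrophil-like cells of library 3 were 2-fold higher in Gpi1 (9.2%) and lower in Gapdh (44.6%), each 1 of 5 genes. Hk2 had too few UMIs for that last comparison.

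The remaining genes of sugar metabolism were read from 7 lists, and 55.5% of all genes measured with at least 200 UMIs had a highest class level at least 4 times the lowest. Of the other glycolytic genes 7 of 9 did, of the other hexose transporters 3 of 3, of lactate and pyruvate genes 4 of 8, of control genes 8 of 9, of the pentose phosphate pathway 4 of 7, of fructose use 2 of 3 and of glycogen 4 of 6. The values that follow are class levels pooled over libraries. The largest spread was that of Eno3, the muscle-type enolase, at 989 CPM in non-classical monocyte-like cells against 8.95 in Cd209a dendritic-like cells. Eno3 gave 61.0% and 65.2% of enolase UMIs in the former in libraries 2 and 3, and 7.09%, 2.50% and 2.94% in microglia-like cells of libraries 1 to 3. Pfkp ran from 0.878 CPM in microglia-like cells to 88.4 in the cycling cluster, and Ldhb from 6.59 in Ccr7 dendritic-like cells to 585 in microglia-like cells.

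Pooled over libraries, microglia-like cells, most of them of library 1, were the highest class for several control genes. Within library 1 only Mlxipl of the 10 control genes compared, and none of the 3 other transporters, was 2-fold higher in them than in all other cells (5.25%). Mlxipl, a glucose-sensing transcription factor, stood at 83.4 CPM against 0 in Ccr7 dendritic-like cells, at least 12.7-fold higher. Pfkfb4, which sets the level of the phosphofructokinase activator, stood at 44.6 against 0 in NK-like cells, at least 6.24-fold higher. Myc, an inducer of glycolytic genes, stood at 98.0 against 0 in non-classical monocyte-like cells, at least 8.88-fold. Slc2a8, an intracellular hexose transporter, and G6pc3, the glucose-6-phosphatase of myeloid cells, were highest there as well, at 62.3 and 77.6.

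Other named genes peaked in other classes. Border-associated-macrophage-like cells, all of library 1, were highest for Txnip, an inhibitor of glucose uptake, at 516 CPM against 26.4 in Ccr7 dendritic-like cells. They were also highest for Pdk1, which inhibits pyruvate dehydrogenase, at 83.4 against 0 there. Microglia-like cells were close to them, at 463 for Txnip and 82.9 for Pdk1. In library 1 alone the Txnip level of microglia-like cells, given below, was nearly the same. Neutrophil-like cells were highest for Slc16a3, the lactate exporter, at 216 against 16.7 in NK-like cells, for Pygl, glycogen phosphorylase, at 139.5 against 0 in border-associated-macrophage-like cells, and for Adpgk, an ADP-dependent glucokinase, at 191. Ccr7 dendritic-like cells led in Gyg, which primes glycogen synthesis, at 650.4, in Pfkfb3 at 127 and in Vhl, which tags hypoxia-inducible factors for destruction, at 61.5. Monocyte-like cells led in G6pdx and Pgd, the oxidative steps of the pentose phosphate pathway, at 74.6 and 207, non-classical monocyte-like cells in Slc2a6 at 69.8, and the cycling cluster in Pck2 at 53.8.

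The list genes were also read by library in microglia-like cells. In library 3 against library 1, 3 of 9 other glycolytic genes were at least 2-fold higher (12.3% of all genes), namely Tpi1, Pgam1 and Eno1, and Ldhb was 2-fold lower (28.2%). Tpi1, at 114, 157 and 587 CPM in libraries 1, 2 and 3, and Eno1, at 244, 249 and 676, lie outside the rule for naming genes and are given after their values were seen. Of the control genes 6 of 10 were 2-fold lower, Pfkfb3, Pfkfb4, Txnip, Myc, Mlxipl and Arnt, and 0 higher. Txnip stood at 514, 169 and 93.3 CPM, and Slc16a3 at 37.0, 79.9 and 191. Slc2a8 stood at 67.4, 54.3 and 11.4. In library 2 against library 1, 1 of 10 lactate and pyruvate genes, Slc16a3, was 2-fold higher (2.5% of all genes). Txnip, Myc and Pck2 were the 3 of 10 control genes that were 2-fold lower (19.9% of all genes). Also 2-fold lower were 2 of 9 other glycolytic genes, 1 of 3 other transporters, 2 of 7 pentose phosphate genes and 1 of 8 glycogen genes.

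Likeness of pattern was measured as Pearson's r of log2(CPM + 10) over the 19 sums, among 5995 genes. The sums share libraries and depths, so r is a description. The genes most like Slc2a5 were Thrsp (0.978), the phagocytic receptor Mertk (0.972), Nav3 (0.970), Slco2b1 (0.970) and Scamp2 (0.968), and over the 15 sums outside library 1 Thrsp had 0.961. Among those most like Hk2 were Lpcat2 (0.951), Slc15a3 (0.951) and the transcription factor Mef2c (0.950). Slc2a5 and Hk2 had an r of 0.914 with each other, and 0.750 without library 1. Gapdh was most like the glycolytic Pgam1 (0.908), Pkm (0.786) and Tpi1 (0.758), and Pgam1 and Eno1 were also among the closest of Pkm (0.848 and 0.806) and of Ldha (0.836 and 0.812). Gpi1 was closest to Tkt (0.896), the transketolase of the pentose phosphate pathway, Aldoa to Pgd (0.805), Pfkl to Glmp (0.909), Pgk1 to Ywhab (0.828) and Slc2a1 to Casp6 (0.808).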

How the data were processed

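Droplet 3′ single-cell libraries were counted by the authors. The deposited values are UMI counts per gene and barcode, with Cell Ranger 2.0.1 and build mm10 named in the submitters' processing notes. Strand use, the cell-calling step and any earlier removal of doublets are not given in the sources used here. The labels' protocol counts 4 samples in the run, and 3 are described here. The genes and lists were chosen with earlier results of these data known.

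Cells needed 500 or more detected genes and no more than 10% of mitochondrial UMIs, which kept 2144 of 2149. Scrublet marked 7 doublets (0.326%), too few to show that it worked. Counts were scaled to 10000 and clustered with scanpy 1.11.5 (2000 variable genes without the 104 sugar-metabolism genes, 30 components, 15 neighbours, Leiden 0.5). A marker counted for a cluster when at least 0.3 of its cells had a UMI and its CPM was at least 2 times the median over clusters, and a class needed 3 markers, a rule taken over from that earlier work. After the clusters were seen, those under 15 cells (4 clusters, 40 cells) were left unnamed, and a cluster led by proliferation genes with 7 of 10 Cd209a dendritic markers was called cycling.

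Counts were summed over class and library and divided by total UMIs (CPM). Intervals are exact Poisson for CPM, and exact Clopper-Pearson for shares and, given the sum of both counts, for ratios; all are 95% and cover counting error only. A level of 0 is limited by 3 counts. Comparisons took genes with at least 50 UMIs over both sums and sides of at least 15 cells (fewer only where the text gives the number), and counted those past 2-fold. Genes were named by rule: the 10 genes; from the lists, those with at least 200 UMIs and a 4-fold range over classes of at least 30 cells, at most 20 by that ratio; and the 5 genes most like each, of which some are not reported here. Gene positions are from GENCODE for GRCm38 and promoters from RefSeq GRCm38.p6. The ratio code was tested on simulated counts. Alternatives changed the filters, clustering, naming, scaling and fold.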

Additional observations from a re-analysis of the deposited data

How the results depend on the processing

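No paired analysis was possible because each group is 1 sample and no barcode number is tied to a group. No difference past 2-fold changed sign. Among those under 2-fold between microglia-like cells of 2 libraries, the log2 ratio of Ldha (library 2 against 1) went from 0.18 to as low as -0.04, of Slc2a1 (library 2 against 1) from 0.18 to -0.57, and of Pfkl (library 3 against 1) from 0.01 to -0.09. Slc2a5 in microglia-like against other cells of library 1, 1.81 on the log2 scale, was 1.55 with finer clusters, 4.56 with cells named one by one, 2.38 as a mean over cells, 1.33 in the cytokine-led cluster and 1.42 in cells with at least 10000 UMIs; in library 2, 4.79 was 3.75 with finer clusters, 3.90 in the cytokine-led cluster, 5.56 as a mean over cells and 5.67 one by one. The glycolytic share of microglia-like cells in library 1, 0.264%, was 0.310% without mitochondrial and ribosomal-protein genes, 0.258% one by one, 0.253% as a mean over cells, 0.280% in the cytokine-led cluster and 0.290% in deep cells. In library 2, 0.259% was 0.328%, 0.220% as a mean over cells and 0.324% in that cluster. In library 3, 0.656% was 0.874%, 0.623% one by one (25 cells, of which 18 were among those above) and 0.701% without cycling cells. The count of genes 2-fold higher in monocyte-like cells of library 2, 0, was 2 at 1.5-fold or with doublets kept, and 1 without mitochondrial and ribosomal-protein genes, with at least 1000 genes per cell or as a mean over cells. That of genes higher in microglia-like cells of library 2 than of library 1, 0, was 2 at 1.5-fold and 1 with at least 1000 genes or in the cytokine-led cluster. Genes higher in library 3 than in library 1 numbered 4 to 6 over 8 alternatives, and 2 were lower in each; 5 other clusterings and filters left at most 5 microglia-like cells in library 3 and gave no value. The cytokine-cluster, deep-cell and non-cycling alternatives were chosen after seeing the data. Depth limits Pgk1, Slc2a1 and Pfkl most, and the 17 Slc2a5 UMIs of library 3. The causes of these moves were not tested.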
